A study of Arvicanthis niloticus with 5 samples.

Results

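Cytosolic ribosomal protein genes encode the proteins that, with ribosomal RNA, build the small (40S) and large (60S) subunits of the ribosome. In the RNA of Nile rat (Arvicanthis niloticus) eyes, a name pattern on the deposited ortholog names found 69 such genes among 13982 named genes. Of these, 42 encode large subunit proteins (Rpl, Rplp) and 27 small subunit proteins (Rps, Rpsa). They were carried by 80 of the 15454 named transcripts. The genes were chosen by name alone, not by level.

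The study sequenced eye tissue of wild-type Nile rats, a day-active African rodent. The 5 labelled samples form 1 group, with no age or treatment in the labels, and a single library was prepared from the mixed RNA of 5 animals. The deposited table holds 1 value per transcript, so there is no spread between animals and no test between groups. Nothing in the labels or headers says if this column covers all 5 labelled samples or a single one, and it is called the pool here in either case. Intervals in brackets are 95% intervals of the fragment counts and cover counting error only. Of 21 markers of lens, photoreceptors, pigment epithelium, cornea and sclera, muscle and blood, 21 were measured, at 28.6 to 3621 FPKM. Fewer cells of a type and less RNA per cell cannot be told apart in such a pool.

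A ribosome holds a single copy of nearly every ribosomal protein, the acidic stalk proteins being the known exception, so the proteins are needed in near equal amounts. Their mRNAs are short, abundant and begin with a terminal oligopyrimidine (TOP) tract, through which the mTOR pathway and the RNA-binding protein Larp1 control translation. Mammalian genomes also hold many processed pseudogenes of these genes, whose sequences resemble the mRNAs. The eye makes heavy use of ribosomes in photoreceptors, which renew their outer segments daily, and in the outer lens cells that produce crystallins.

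Ribosomal protein mRNAs were among the abundant named mRNAs of the eye. Levels are in FPKM, the number of fragments per 1000 nt of transcript for each 1000000 fragments mapped, summed over the transcripts of a gene. The median of the 69 genes was 175 FPKM, 26.9-fold above the median of 6.50 FPKM over all named genes. At FPKM 100 or more stood 51 of the 69 genes (73.9%), against 2.21% of all named genes. At FPKM 50 or more stood 58 of them, against 6.06% of named genes, and at FPKM 200 or more stood 31, against 0.851%. The 69 genes held 5.63% of the FPKM of named genes and 23 of the 100 highest places among named genes. Only 15454 of the 124439 transcripts were named, and the 69 genes held 1.01% of the FPKM of all transcripts.

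The 10 most abundant members ranged from 335 to 787 FPKM and held 33.6% of the FPKM of the set. Rpl26, a protein at the rim of the exit tunnel through which the new peptide leaves, was highest at 787 FPKM [778 to 796]. Rpl12, at the base of the stalk, followed at 544 FPKM [536 to 553]. Rps6, the small subunit protein phosphorylated by the S6 kinases, stood at 525 FPKM [518 to 531], and Rps14, of the platform of the small subunit, at 521 FPKM [514 to 529]. The intervals of Rps6 and Rps14 overlap, so their order is not resolved by the counts. Rpl5, which carries the 5S ribosomal RNA into the large subunit, had 466 FPKM [459 to 473]. Rpl4, Rpl9 and Rps27a lay between 335 and 345 FPKM, with overlapping intervals for neighbours in this order. Rps27a is made as a fusion with ubiquitin.

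**Figure D1:**
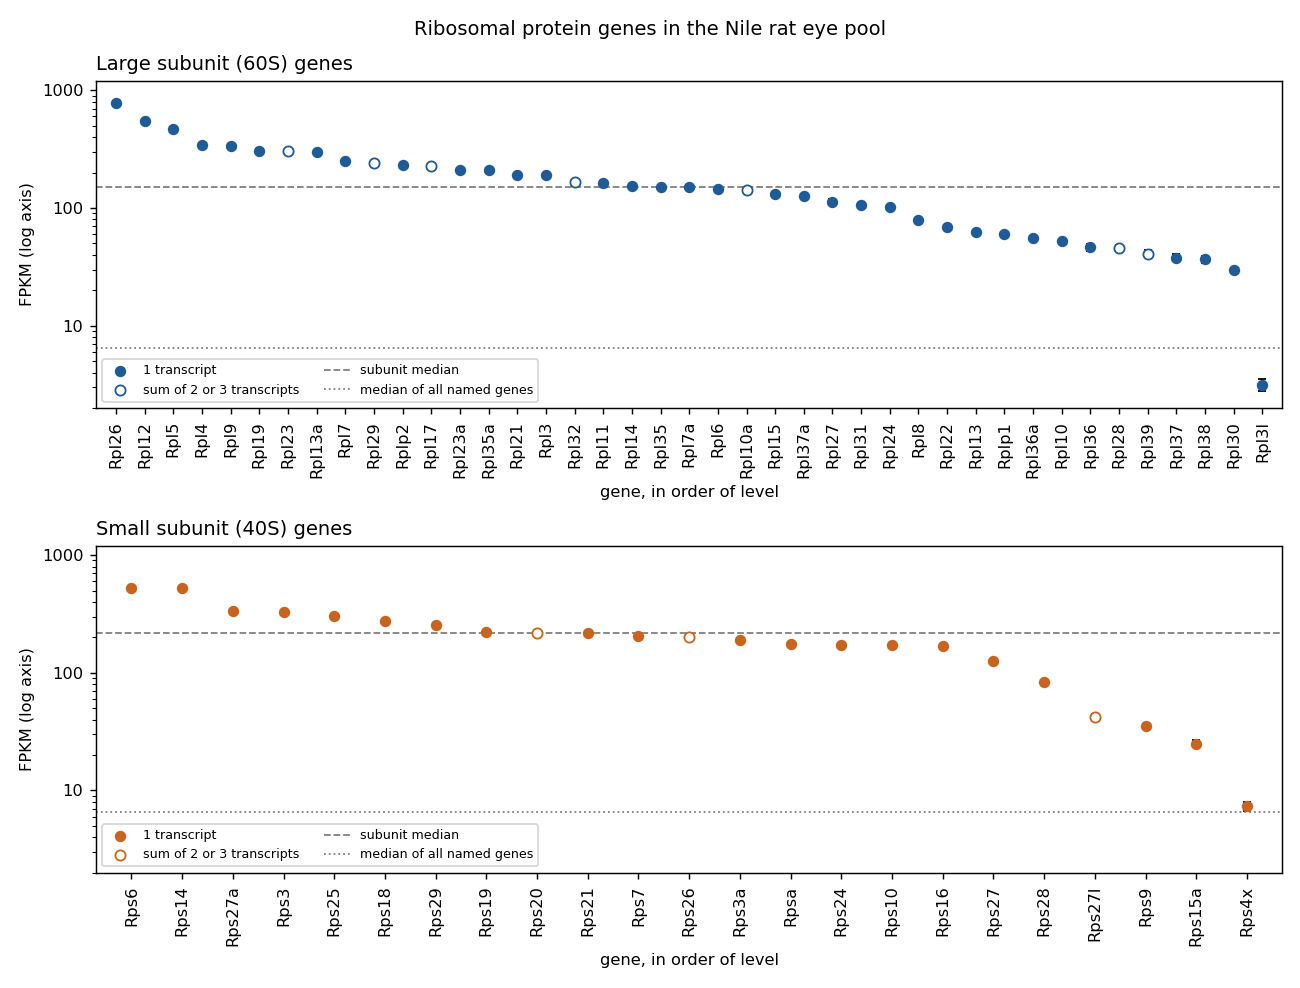
Level of each ribosomal protein gene in the eye pool in FPKM on a log axis, large subunit genes above and small subunit genes below, in order of level. Points are genes (open where 2 or 3 transcripts were summed) with 95% counting intervals, mostly smaller than the point; 5 of the 69 genes are not drawn. Most of the genes drawn lie above 100 FPKM, and Rpl3l (3.12 FPKM) and Rps4x (7.35 FPKM) lie far below the others.

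The low end of the set was wide. The 10 least abundant members ranged from 3.12 to 46.0 FPKM, and 11 of 69 lay under 50 FPKM. Rpl3l, the striated muscle paralog of Rpl3, was lowest at 3.12 FPKM [2.77 to 3.51]. Rps4x, a protein of the small subunit encoded on the X chromosome in mammals, was next at 7.35 FPKM [6.71 to 8.04], with rank 6316 among the 13982 named genes. It was carried by 1 transcript of 1006 nt with 480 fragments, and Rpl26 stood 107-fold [97.9 to 117] above it. Fragments of Rps4x on transcripts that carry no symbol are not counted in it.

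Above this pair came Rps15a (25.1 FPKM), Rpl30 (29.98 FPKM), Rps9 (35.5 FPKM), Rpl38 (36.8 FPKM), Rpl37 (37.9 FPKM), Rpl39 (41.0 FPKM), Rps27l (42.3 FPKM) and Rpl28 (46.0 FPKM). Rpl38 is required in the mouse for translation of Hox mRNAs, and Rpl39 lines the exit tunnel. Rps27l is a p53-inducible paralog of Rps27. The counts behind these values ran from 732 fragments for Rps15a to 5951 for Rpl30.

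The spread between members was far wider than the counting error. The median half-width of the intervals was 2.28% of the level, and the widest, of Rpl3l, was 11.8%. Across the 69 genes the SD of log2 FPKM was 1.42, and the level at the 90th percentile was 8.57-fold that at the 10th percentile. Of the 69 genes, 45 (65.2%) lay within 2-fold of their median. Without the paralogs Rpl3l and Rps27l the SD was 1.25.

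Large subunit genes had a lower median FPKM than small subunit genes, with wide overlap. The 42 large subunit genes had a median of 150.4 FPKM and a range of 3.12 to 787 FPKM. The 27 small subunit genes had a median of 219 FPKM and a range of 7.35 to 525 FPKM. The difference of the median log2 FPKM, large minus small, was -0.54. Before division by length the order was reversed, with a median of 7751 fragments for large and 5917 for small subunit genes. The longest transcript of a gene had a median of 784.5 nt for large and 563 nt for small subunit genes. At FPKM 100 or more stood 29 of 42 large and 22 of 27 small subunit genes. Among the 10 highest members 5 encode small subunit proteins, against 39.1% of the 69 genes. Among the 10 lowest 6 encode large subunit proteins, close to their share of 60.9% of the 69 genes. Mitochondrial ribosomal protein genes had the opposite order of FPKM, with a median of 14.7 FPKM over 46 large subunit genes and 9.47 FPKM over 28 small subunit genes.

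Proteins that act together in the ribosome were not equal in the FPKM of their mRNAs, but transcript length entered both pairs below. The stalk of the large subunit recruits elongation factors and is built on Rplp0 with dimers of Rplp1 and Rplp2. Rplp2 had 232 FPKM [226 to 237] and Rplp1 had 60.8 FPKM [59.98 to 61.5], a log2 ratio of 1.93 [1.89 to 1.97]. In fragments Rplp1 was the higher, with 23247 on 5889 nt against 7030.5 on 467 nt for Rplp2. Rpl5 and Rpl11 bind the 5S ribosomal RNA together and, outside the ribosome, the p53 regulator Mdm2. Rpl5 stood 2.86-fold [2.80 to 2.92] above Rpl11, at 466 against 163 FPKM. Rpl5 had 16945 fragments on 560 nt and Rpl11 had 18205 on 1723 nt.

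The 9 proteins of the exit tunnel and its rim had a median of 211 FPKM. Rpl26 led this group, with Rpl4 at 345 FPKM, Rpl19 at 305 FPKM, Rpl17 at 226 FPKM, Rpl23a at 211 FPKM, Rpl35 at 151 FPKM and Rpl31 at 106 FPKM. Rpl22 (69.1 FPKM) and Rpl39 (41.0 FPKM) were its lowest members. Of the proteins along the mRNA channel of the small subunit, Rps3, at the entry, had 326 FPKM. Rps26 and Rps28, at the exit, had 200.4 and 83.6 FPKM.

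Of the proteins tied to signalling, Rps6 was among the 10 highest. Rpl13a, known for silencing inflammatory mRNAs after interferon-gamma, stood at 298 FPKM. Rpsa, also known as the precursor of the laminin receptor, stood at 175 FPKM, the median of the set. Of 13 genes mutated in human Diamond-Blackfan anaemia, an inherited failure of red cell production, 13 were measured with a median of 205 FPKM. FPKM 100 was reached by 12 of these 13, and by 51 of all 69 genes (73.9%). Rps19, the gene most often mutated there, stood at 222 FPKM, Rpl35a at 209 FPKM, Rps24 at 172 FPKM and Rps10 at 171 FPKM. The exception was Rps28.

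A group of 5 proteins is known for roles beyond the common core of translation, such as the choice of mRNAs or late ribosome assembly. Of these, Rps25 had 305 FPKM and Rpl10a 142 FPKM. Rpl22 (69.1 FPKM), Rpl10 (52.7 FPKM) and Rpl38 (36.8 FPKM) lay below, and the median of the 5 was 69.1 FPKM.

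Paralogs were compared with the genes they resemble. Rpl3l stood at 3.12 FPKM and Rpl3 at 190.5 FPKM, a log2 ratio of -5.93 [-6.10 to -5.76]. The skeletal muscle markers Tnnc2, Mb and Ckm were present in the same pool at 174, 127 and 28.6 FPKM, and their part in the level of Rpl3l was not tested. Rps27l had 42.3 FPKM and Rps27 127 FPKM, a log2 ratio of -1.58 [-1.67 to -1.50]. Rpl7l1, outside the name pattern, had 10.5 FPKM and Rpl7 249.6 FPKM, a log2 ratio of -4.57 [-4.62 to -4.51]. Rpl22l1, also outside the pattern, was the only one of the 4 paralogs with a higher FPKM than its partner, at 89.5 FPKM against 69.1 FPKM for Rpl22, a log2 ratio of 0.37 [0.30 to 0.44].

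The transcripts that carried these genes varied widely in length. The longest transcript of a gene had a median of 702 nt over the 69 genes, against 2282 nt over all named genes, and ranged from 220 nt (Rpl36) to 5889 nt (Rplp1). Under 500 nt were 22 of the 69 genes, against 5.23% of named genes. Over 2000 nt were 6 genes, against 57.2% of named genes. Those 6 were Rplp1, Rps20 (3324 nt), Rpl30 (3055 nt), Rpl3 (2235 nt), Rpl22 (2175 nt) and Rpl37a (2049 nt). Under 300 nt were Rpl36, Rpl27 (251 nt), Rps18 (291 nt) and Rps7 (296 nt).

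Fragments increased with transcript length, but by less than in proportion. The 23 genes with the shortest transcripts, 220 to 504 nt, had a median of 4997 fragments and 209 FPKM. The 23 of middle length, 511 to 979 nt, had medians of 9554 fragments and 192 FPKM, and the 23 longest, 1006 to 5889 nt, had 16954 fragments and 146 FPKM. A line through log2 fragments against log2 length had a slope of 0.68, where genes of equal FPKM would give 1. Without the paralogs Rpl3l and Rps27l the slope was 0.74, and over all named genes it was 1.34. Across the 69 genes the Spearman correlation with length was 0.52 for fragments and -0.18 for FPKM. Over all named genes it was 0.55 and 0.16. These correlations describe genes of 1 library, and length is also the divisor of FPKM. Division by length did little to even out the set, since the SD of log2 fragments was 1.57 and that of log2 FPKM 1.42.

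**Figure D2:**
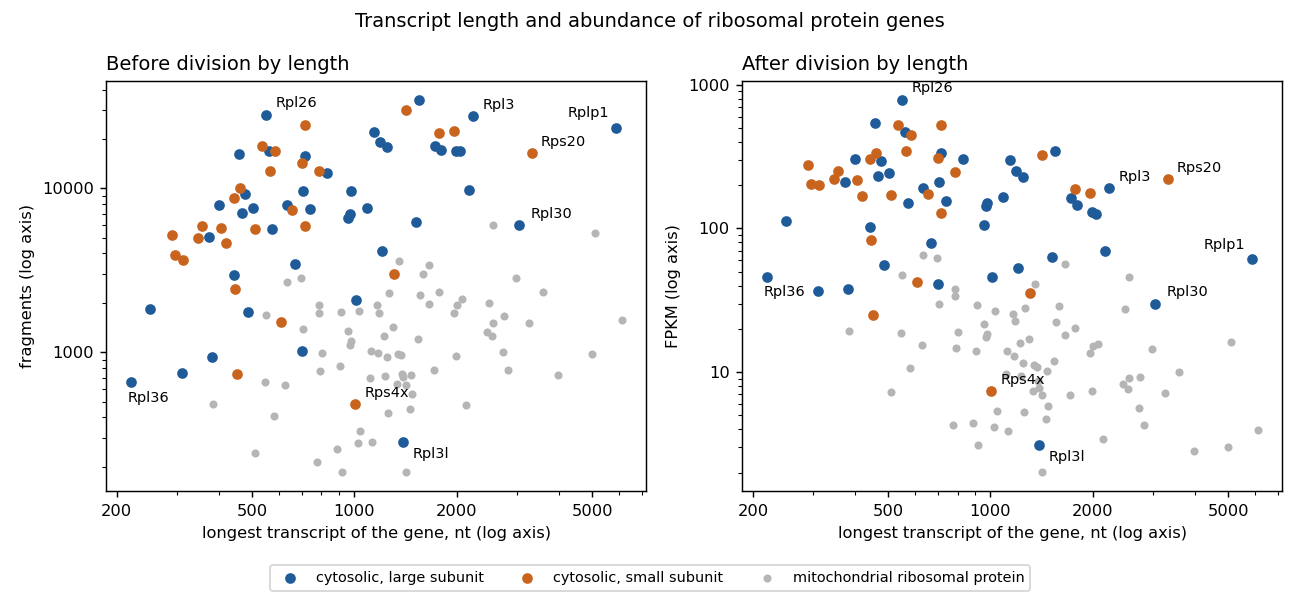
Fragments (left) and FPKM (right) against the longest transcript of each gene in nt, all on log axes, for large subunit, small subunit and, in grey, mitochondrial ribosomal protein genes. Rplp1, Rps20, Rpl30 and Rpl3 lie at the long end with 5951 to 27664 fragments, and Rplp1 and Rpl30 lie low once fragments are divided by length.

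The order of some members turned on length. Rplp1 was 6th of 69 by fragments, with 23247, and 56th by FPKM. It had 3.31-fold more fragments than Rplp2 (7030.5 on 467 nt) although its FPKM was lower. Rpl3 was 4th by fragments and 33rd by FPKM. Rpl5 and Rpl11 had 16945 and 18205 fragments, and their lengths were 560 and 1723 nt. Rpl22l1 had 2105 fragments on 362 nt and Rpl22 had 9769 on 2175 nt, 4.64-fold more for Rpl22. Rpl36, with 661 fragments on the shortest transcript of 220 nt, stood at 46.2 FPKM. Rps4x and Rpl3l were low on both scales, with 480 and 283 fragments. Whether the long transcripts hold sequence beyond the ribosomal protein mRNA, and the short ones only a piece of it, was not tested, since transcript sequences were not used here.

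Of the 69 genes, 10 (14.5%) were carried by 2 or 3 transcripts, against 9.87% of named genes. Rpl23 was the sum of 3 transcripts, 487 nt at 181 FPKM, 829 nt at 74.4 FPKM and 830 nt at 48.2 FPKM. Rps20 was the sum of 571 nt at 173 FPKM and 3324 nt at 46.5 FPKM, and Rpl32 of 536 nt at 114 FPKM and 1089 nt at 51.4 FPKM. In 6 of the 10 genes no species column carried the symbol on more than 1 of the transcripts, so each transcript was named through a different species. The Nile rat RefSeq annotation (mArvNil1.pat.X) lists a single transcript for 8 of these 10 genes and for 54 of the 68 members it holds.

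Summing suits isoforms of a gene. If the transcripts are pieces of 1 mRNA, pooled fragments over pooled length is the fitting level and the sum overstates it. The sum exceeded the pooled value by 1.92-fold (Rps26) to 3.43-fold (Rpl23). Genes with several transcripts had a median of 183 FPKM and genes with 1 transcript 175 FPKM, a difference of 0.055 in median log2 FPKM. With pooled values the difference turned to -1.36, and with the highest transcript alone to -0.55. By construction both values lie below the sum for genes with several transcripts and leave genes with 1 transcript unchanged. The direction of these shifts was therefore fixed in advance, and only their size depends on the data.

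**Figure D3:**
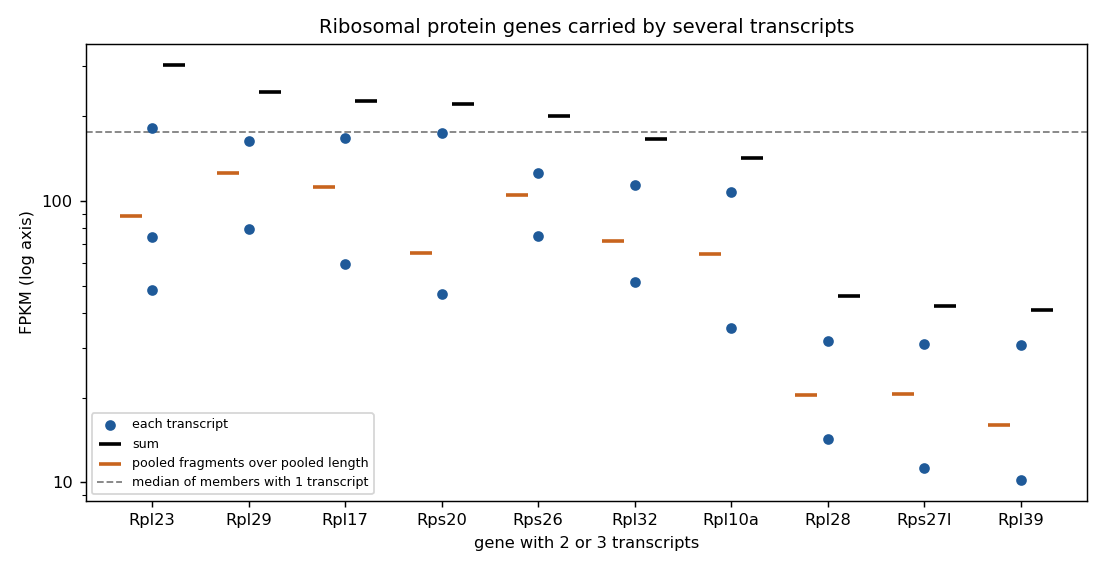
The 10 ribosomal protein genes carried by several transcripts, with the FPKM of each transcript (points), their sum (black bars) and the pooled value (orange bars) on a log axis. The 5 highest sums, 200.4 to 304 FPKM, lie above the median of genes with 1 transcript, 175 FPKM (dashed line), and all 10 pooled values lie below it.

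Most ribosomal protein genes shared fragments with another transcript. A fragment count that is not whole shows that fragments were divided between transcripts. Of the 69 genes, 65 (94.2%) had such a count, against 43.5% of all named genes. Among the 51 members at FPKM 100 or more the share was 96.1%, against 85.7% of the 258 other named genes at that level. It was also high in other complexes, at 92.9% for the proteasome core, 87.5% for the chaperonin CCT and 84.6% for ATP synthase. For mitochondrial ribosomal protein genes it was 77.0%. The counts of the other 4 genes, among them Rpl22, Rpl3l and Rps7, were whole. How much of each level was assigned from pseudogenes or paralogs, or lost to them, was not tested.

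The names rested on different numbers of species. The symbol was the same in all 3 species for 18 of 80 transcripts (22.5%), against 11% of named transcripts, and 32 were named through 1 species only. Symbols differed between species on 4 of 80 transcripts, against 16.7% of named transcripts. Among these were the transcript of Rpsa (Lamr1 in rat) and the 487 nt transcript of Rpl23. The members were chosen by these same symbols, and transcripts with another first name, such as Arbp, were passed over. Both shares are therefore partly set by the rule and are not a result about the members. Median levels were 181, 172 and 190 FPKM for the 18, 29 and 22 genes named in 1, 2 and 3 species. The RefSeq annotation held a gene of the same symbol for 68 of the 69, all but Rplp1.

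Of 77 canonical mammalian symbols that the pattern can find, 67 were found. The others were Rpl18, Rpl27a, Rpl34, Rpl41, Rplp0, Rps2, Rps12, Rps13, Rps15 and Rps23, and their absence describes the names, not the RNA. Gnb2l1 (Rack1), a scaffold on the small subunit whose name lies outside the pattern, had 163 FPKM.

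Other complexes built in fixed ratios were set beside the ribosome. The 74 mitochondrial ribosomal protein genes had a median of 12.4 FPKM, and the cytosolic median stood 14.1-fold above it, a difference of 3.82 in median log2 FPKM. The highest mitochondrial member, Mrpl24 at 64.9 FPKM, exceeded 15 of the 69 cytosolic genes, and Mrpl41 followed at 62.4 FPKM. Medians were 49.3 FPKM for the 14 genes of the proteasome core, led by Psmb6 and Psmb7 (145 and 141 FPKM). They were 90.6 FPKM for 13 of 15 ATP synthase genes, led by Atp5b and Atp5f1 (559 and 398 FPKM), and 87.7 FPKM for the 8 genes of the chaperonin CCT, led by Cct4 and Cct8 (120.2 and 98.9 FPKM).

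The spread of the ribosomal set was within the range of these complexes. The SD of log2 FPKM was 1.42 for cytosolic ribosomal protein genes, 1.16 for mitochondrial ones, 1.10 for the proteasome core, 1.48 for ATP synthase and 0.63 for CCT, against 1.80 over all named genes. Genes within 2-fold of their own median made up 65.2% of the cytosolic set, 58.1% of the mitochondrial set, 64.3% of the proteasome core, 61.5% of ATP synthase and 87.5% of CCT, against 46.9% of all named genes. CCT had the narrowest spread and also longer transcripts, of 950 to 2610 nt.

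**Figure D4:**
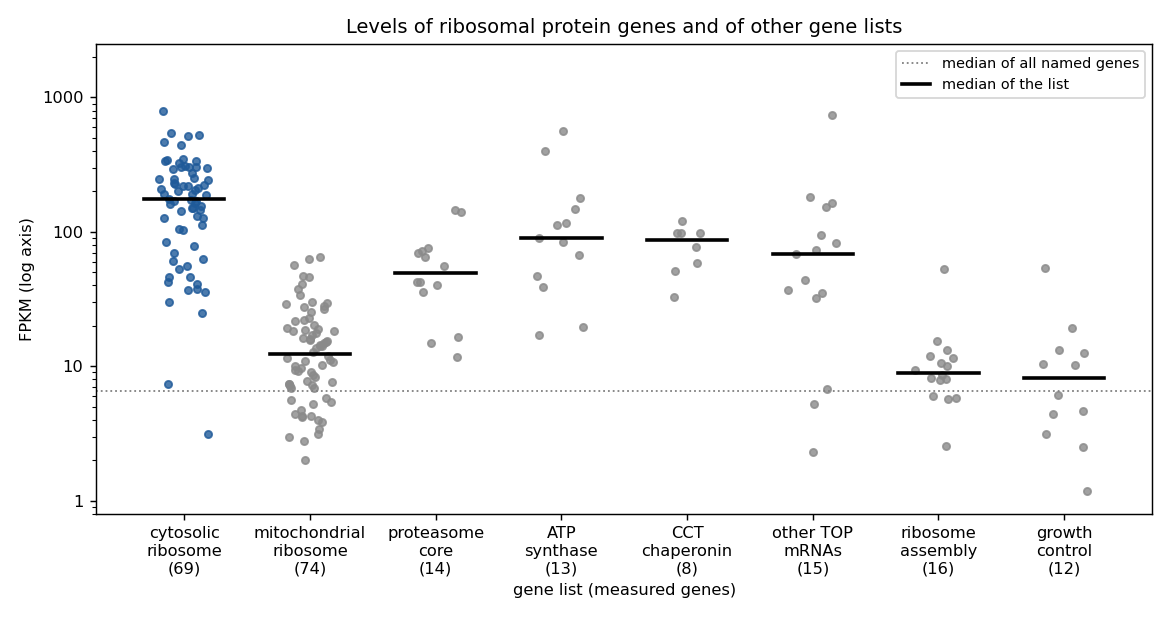
Level of each gene (points) in FPKM on a log axis for the cytosolic ribosome and 7 other gene lists, with the number of measured genes under each name, the list median (black bar) and the median of all named genes (dotted line). The cytosolic ribosomal median of 175 FPKM lies above the other list medians, and the ranges overlap.

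The lists of translation factors, ribosome assembly and growth control had lower medians. Other mRNAs with a TOP tract, mostly translation factors, had a median of 69.0 FPKM over 15 of 17 genes. They ran from 746 FPKM for Tpt1 (translationally controlled tumour protein) and 180 FPKM for Eef2 (the translocation factor) to 5.25 FPKM for Eef1d and 2.30 FPKM for Btf3. Ribosome assembly factors had a median of 8.99 FPKM over 16 of 20 genes, led by Ncl (nucleolin, 52.9 FPKM) and Nop10 (15.4 FPKM). Genes of growth control had a median of 8.19 FPKM over 12 of 13 genes, led by Rheb, the activator of mTOR (54.2 FPKM), and Ubtf, a factor of ribosomal RNA transcription (19.2 FPKM). The S6 kinases Rps6kb1 and Rps6kb2 stood at 12.5 and 13.3 FPKM, Larp1 at 10.4 FPKM and Mtor at 2.52 FPKM.

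Several ribosomal protein genes hold small RNA genes. In the RefSeq annotation, 26 of the 68 matched ribosomal protein genes held at least 1 small nucleolar RNA (snoRNA) gene within their bounds, against 3.3% of all protein-coding genes. They held 50 such genes in all, with 5 in Rpl4 and 4 in Rpl13a. SnoRNAs guide chemical changes of ribosomal RNA and are released from introns of their host genes. The 26 hosts had a median of 202 FPKM and the 42 others 159 FPKM, with overlapping ranges of 29.98 to 544 and 3.12 to 787 FPKM, and their transcripts had a median length of 1034 and 562.5 nt.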

How the data were processed

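RNA of Nile rat eyes was sequenced from a library pooled from 5 rats, per the labels' protocols. Bowtie was used, per the submitters' processing notes, with the assembler, counter and genome build not given in the sources used here. The FPKM deposited by the authors divide fragments by full transcript length and by 64967222 mapped fragments, per the file headers. Estimated counts, with fractions, fill the fragment column that the authors deposited. That column sums to 66703011, more than the stated number of mapped fragments, and the reason was not tested. A transcript took its first symbol in the order mouse, rat, human, and FPKM were summed per gene. The labels put the 5 samples in 1 group, and the table analysed here has 1 column of values that names none of them, so no test between samples was run. Depth was 283 to 34713 fragments per ribosomal protein gene. Intervals are gamma (Fay-Feuer) Poisson intervals, exact for 1 transcript, and delta-method intervals for ratios, checked on simulated counts. They cover counting error only and treat the estimated counts as independent Poisson counts. The error of dividing shared fragments between transcripts is left out, and so is that of PCR copies, which are not independent molecules. A count within 1e-06 of a whole number was called whole. Genes named are the 10 highest and 10 lowest, those with several transcripts or differing symbols, paralogs, functional groups and the 2 highest of other lists; further ones (Eef1d, Btf3, S6 kinases, Larp1, Mtor, examples of length) were chosen after their values were seen. A few genes that meet the rule are left unnamed, though counts and medians include them. Genes and lists were chosen with earlier results of these data known. A comparison with coding length and with transcript starts was planned, but protein and promoter sequences were not used here. Computations ran in SciPy 1.17.1, pandas 2.3.3 and NumPy 2.4.6 under Python 3.11.15, with plots from Matplotlib 3.10.9.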

Additional observations from a re-analysis of the deposited data

Results flagged for a closer look

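Symbols of ribosomal proteins also appeared on transcripts that the name pattern passed over, because the first symbol was another name. A transcript named Arbp in rat and RPLP0 in human, the central stalk protein, had 435 FPKM [431 to 440], and one named Gm10653 in mouse and RPS2 in human had 295 FPKM [290.6 to 299.1]. One named Gm15450 in mouse and Rps23 in rat and human had 114 FPKM [111 to 117], and one named Gm4925 in mouse and RPS12 in human had 1.16 FPKM [0.793 to 1.64]. All 4 lay above the limit that a count of 0 allows, 3 fragments or 0.0366 to 0.109 FPKM at these lengths. Whether these transcripts are ribosomal protein mRNAs or come from pseudogenes was not tested. None of the levels given for the 69 genes includes them.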

How the results depend on the processing

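The number of genes at FPKM 100 or more stayed within 1.5 times 51 under all settings but a threshold of FPKM 200, which left 31. The large subunit genes had the lower median FPKM and the cytosolic genes stood above the mitochondrial ones under every setting run. All settings run for these differences divide by length. In undivided fragments the large subunit genes had the higher median, 7751 against 5917. In what follows, the median is in FPKM, the share is of named FPKM, the subunit difference and the piece difference (several transcripts minus 1) are in median log2 FPKM, and the correlation is Spearman's, of FPKM with length.
With the highest transcript alone, the median was 169, the share 5.69%, the subunit difference -0.47, the SD 1.44 and the piece difference -0.55. With pooled fragments over pooled length they were 154.7, 5.71%, -0.70, 1.504 and -1.36, with a correlation of -0.21. With 100 nt taken off each length they were 203, 6.17%, -0.72, 1.45 and 0.12, with a correlation of -0.31; with 200 nt off they were 276, 7.10%, -0.73, 1.52 and -0.20, with a correlation of -0.50 and a cytosolic minus mitochondrial difference of 4.15. Without transcripts under 300 nt, the median was 172, the share 5.42%, the SD 1.505, the correlation -0.20 and the piece difference 0.15. With the same symbol in at least 2 species, the median was 169, the share 6.49%, the subunit difference -0.81, the SD 1.58 and the correlation -0.16. With mouse symbols only they were 164.5, 5.11%, -0.45, 1.63 and -0.077, and the piece difference was -0.35. With canonical genes only, the median was 189, the share 5.61%, the SD 1.25, the correlation -0.16, the piece difference 0.14 and the difference from mitochondrial genes 3.93. With single-transcript genes only, the share was 5.85% and the SD 1.47. Rescaled to a sum of 1000000, the median was 128. With human symbols first, chosen after the names were seen, the median was 172, the share 5.76%, the subunit difference -0.45, the SD 1.62, the correlation -0.12 and the piece difference -0.18.
The correlation was -0.12 with the length of the highest transcript and -0.048 over genes of 300 to 1200 nt, chosen after the lengths were seen, where the SD was 1.33. It was 0.52 for undivided fragments. The share was 1.01% of the FPKM of all transcripts and 2.26% of named fragments. The piece difference was negative under 5 settings, of which the highest transcript alone and pooled fragments change how transcripts are combined; under the others, and for the other values, the cause was not tested. No paired analysis was possible because the table has no column per sample, and no replicate could be left out for the same reason.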
